A study of Mus musculus with 26 samples.

Results

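The Fc gamma receptor genes describe how a macrophage meets IgG, and the set followed here has 6 members among the 55487 genes of the deposited count table. They are the activating receptors Fcgr1, Fcgr3 and Fcgr4, the shared signalling chain Fcer1g, the inhibitory receptor Fcgr2b and the neonatal Fc receptor Fcgrt. The members were taken by symbol, through their Ensembl identifiers in the mouse GRCm38 annotation, and all 6 passed the filter on low counts that left 17143 genes. Fcgr1 (CD64) binds monomeric IgG with high affinity, Fcgr3 (CD16) binds immune complexes with low affinity, and Fcgr4 binds IgG2a and IgG2b. These activating receptors need the ITAM motif of the common gamma chain, the product of Fcer1g, to reach the cell surface and to signal. Fcgr2b (CD32B) carries an inhibitory ITIM motif in its own tail and dampens signals from the activating receptors. Fcgrt encodes the heavy chain of FcRn, a relative of MHC class I proteins that pairs with beta-2-microglobulin (B2m), binds IgG in acidic endosomes and returns it to the cell surface or passes it on for antigen presentation.

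The study sequenced poly(A)-selected RNA of lung macrophages from mice, labelled either as alveolar macrophages resident in the lung (AM) or as macrophages derived from bone marrow (BM). The untreated group, AM day 0 (n = 3), received no lipopolysaccharide (LPS, a cell wall component of Gram-negative bacteria), and its sample descriptions carry the word Young. The other groups were taken after LPS given by the route the series abbreviates as IT. At day 1 there were 4 libraries of AM and 5 of BM, at day 3 there were 3 of AM and 4 of BM, and at day 7 there were 4 of AM and 3 of BM. No genetic change is named for any group, and strain, sex, exact age and the gates that separated the cells are not given in the sources used here. The labels do not say that libraries of a group came from separate animals. The p-values reflect how far libraries spread within groups, estimated over all groups together, and that spread may be technical. Libraries are named by group and number, as in AM_day0.1.

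The 26 libraries held 9176202 to 80816742 counts, and the smallest count of any member in any library was 149. Levels are counts-per-million values (CPM) after TMM scaling, which corrects library sizes for the make-up of the RNA, and a difference is called at a Benjamini-Hochberg adjusted p under 0.05 in edgeR's quasi-likelihood test over all 17143 genes. The 7 general macrophage markers and the 10 alveolar macrophage markers were all detected in every group, the latter with summed levels of 17011 to 32059 CPM in AM libraries and 958 to 4158 CPM in BM days 1 and 3. At BM day 7 that sum was 14683 and 15522 CPM in BM_day7.1 and BM_day7.2 against 2890 CPM in BM_day7.3. For the 8 monocyte markers the sum was 166 to 2394 CPM in AM libraries against 1156 to 4196 CPM in BM libraries. BM_day3.1 stood apart, with 27460 CPM of 5 fibroblast markers, 3207 CPM of 12 neutrophil markers and the fewest genes detected (9126). Its fibroblast sum was nearly all Col1a1 (14976 CPM) and Col1a2 (12125 CPM), with Col3a1 at 333, Pdgfra at 26.2 and Dcn at 0 CPM. The names of the AM day 0 libraries start with a number that only they carry, as do those of BM day 1, so that number and the group cannot be told apart in comparisons with them. Summed Y-linked RNA, given as CPM without TMM scaling, was at most 4.02 CPM in AM day 7 and BM day 7 and 148 to 239 CPM in AM days 0 to 3. It was 7.20 to 41.3 CPM in BM day 1, below every AM day 1 library (182 to 227 CPM). Within BM day 3 it was 0.176 and 0.0495 CPM in BM_day3.1 and BM_day3.2, and 176 and 171 CPM in BM_day3.3 and BM_day3.4. The X-linked RNA Xist was 280 to 328 CPM in AM day 7, 374 to 524 CPM in BM day 7 and 472 to 910 CPM in BM day 1. In AM days 0 to 3 Xist was at most 20.8 CPM, except in AM_day0.1 (144 CPM), which also held 148 CPM of Y-linked RNA. A fit with summed Y-linked RNA as a covariate was made as an alternative. Where the groups do not overlap in it the covariate and the group cannot be fully told apart.

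Sequence bears on how the counts are read. Fcgr2b (chr1:170958617-170976547, minus strand), Fcgr4 (chr1:171018920-171029761, plus strand), Fcgr3 (chr1:171051174-171064935, minus strand) and Fcer1g (chr1:171229572-171234365, minus strand) lie on one stretch of chromosome 1, while Fcgr1 (chr3:96282909-96293969, minus strand) and Fcgrt (chr7:45092990-45103851, minus strand) lie elsewhere. Fcgr3 and Fcgr2b are close copies over part of their coding sequence: 491 of 509 aligned coding bases were identical (96.5%), against 57.0% to 64.2% for the other pairs of the 4 receptors. A stretch of the coding sequence, shown because it is where reads of one gene can match the other, differs at 1 of 120 bases, written in capitals (GENCODE M21 transcripts, coding bases 248 to 367 of Fcgr3 and 263 to 382 of Fcgr2b).
Fcgr3: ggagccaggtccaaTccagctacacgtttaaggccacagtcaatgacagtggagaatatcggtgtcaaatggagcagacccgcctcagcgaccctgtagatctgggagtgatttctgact
Fcgr2b: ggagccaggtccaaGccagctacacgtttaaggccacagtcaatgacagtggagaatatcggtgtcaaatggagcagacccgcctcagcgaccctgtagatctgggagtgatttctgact
Of all 50-base stretches of the Fcgr3 transcript 12.8% also occur in Fcgr2b transcripts, and of those of Fcgr2b 4.75% occur in Fcgr3 transcripts, while no other pair of members shares any. How the authors' counting treated reads with more than 1 match is not given in the sources used here, so the counts of Fcgr3 and Fcgr2b are uncertain to that extent. Fcgr2b and Fcgrt also overlap annotated antisense genes (Gm38204 with at most 16.6 CPM and Gm45669 with at most 0.355 CPM), and Fcgr4 overlaps the small nuclear RNA gene Gm26110 (at most 11.8 CPM). The strand setting of the counting is not given in the sources used here, so reads of overlapping genes may not have been told apart.

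The start sites of Fcgr1 and Fcgr4 were compared because these are the pair of activating receptors whose levels followed each other most closely across the libraries. Their promoters are shown as the 160 bases before the RefSeq start site (GRCm38.p6, 5' to 3' on the gene's strand, chr3:96293970-96294129 for Fcgr1 and chr1:171018766-171018925 for Fcgr4). Capitals mark matches on either strand to 3 motifs: GAGGAA, the core bound by PU.1, the macrophage lineage factor; TTCNNNGAA, the gamma-activated site; and a core of the interferon-stimulated response element, GAAA followed by any 2 bases and GAAA again.
Fcgr1: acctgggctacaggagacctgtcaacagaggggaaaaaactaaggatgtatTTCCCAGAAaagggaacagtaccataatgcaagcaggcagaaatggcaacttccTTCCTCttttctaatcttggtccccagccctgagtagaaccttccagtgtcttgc
Fcgr4: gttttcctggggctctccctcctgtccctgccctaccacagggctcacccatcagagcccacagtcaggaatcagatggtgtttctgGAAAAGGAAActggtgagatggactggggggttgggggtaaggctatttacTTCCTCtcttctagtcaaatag
Both hold TTCCTC, the reverse complement of the PU.1 core, which starts 55 bases before the start site of Fcgr1 and 22 bases before that of Fcgr4. In windows of 300 bases around 32851 promoters, 28.3% held this core. Fcgr1 also holds a gamma-activated site starting at base 109 before its start site (8.3% of promoters hold one), and Fcgr4 an interferon-response core starting at base 73 (3.44% of promoters). The promoter windows of Fcgr3 hold the PU.1 core alone, and those of Fcer1g, Fcgr2b and Fcgrt hold none of the 3 motifs. A match is a run of letters, not a measured binding site.

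In alveolar macrophages without LPS the transcripts ranked, per length of exons, as Fcer1g with 379 CPM per kb, Fcgr3 with 239, Fcgrt with 214, Fcgr4 with 65.0, Fcgr2b with 32.2 and Fcgr1 with 24.01 CPM per kb. Alveolar macrophages without LPS thus held the gamma chain, the low-affinity activating receptor and FcRn at levels per kb above those of the inhibitory and the high-affinity receptor. Fcgr2b has 7 annotated transcripts, and its exon union of 5790 bases is longer than the 3544 bases of the transcript with the longest coding sequence, so its level per kb depends on the length chosen. In bulk RNA, fewer cells of a type and less RNA per cell cannot be told apart, which holds for every level given here.

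**Figure D1:**
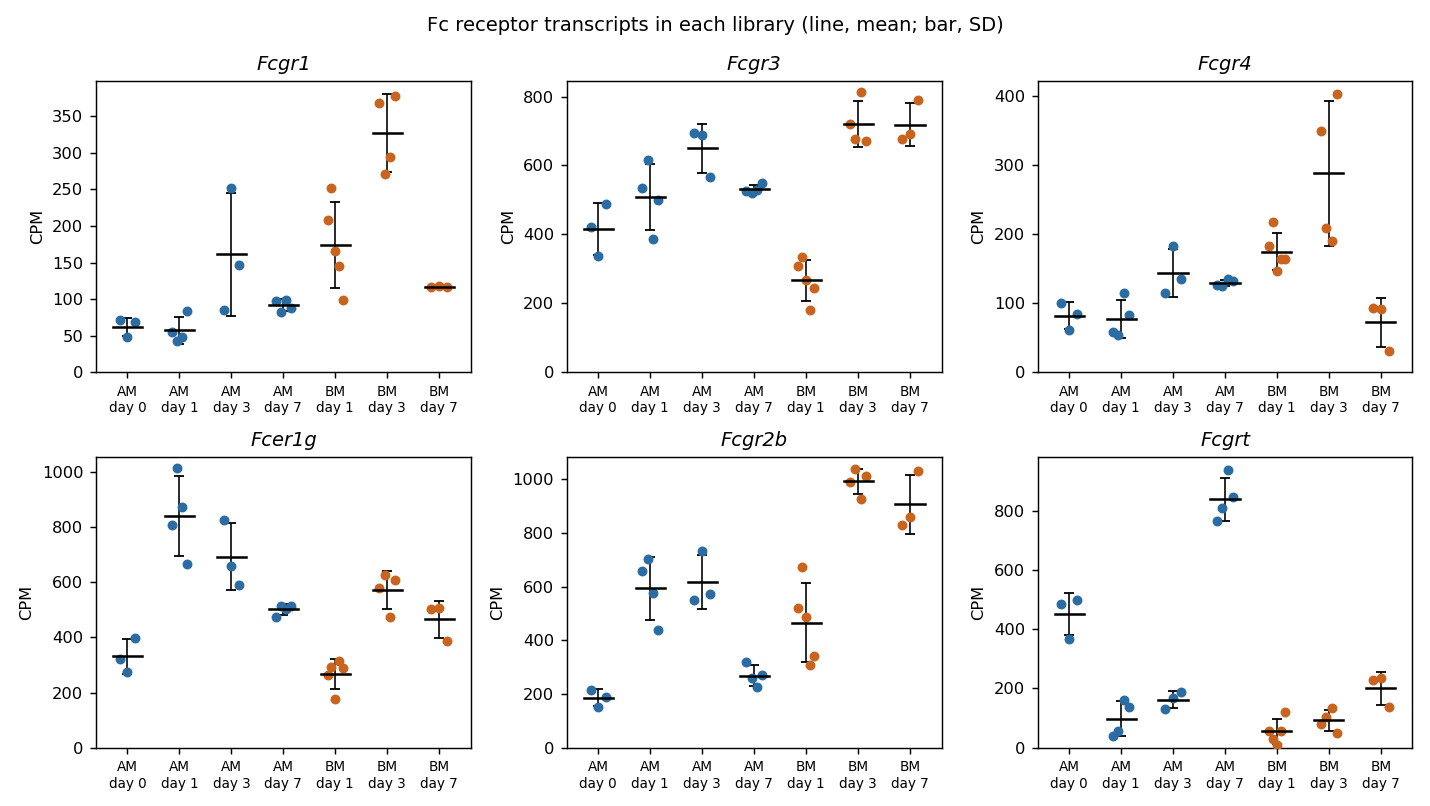
Level of each member in every library (CPM, vertical axis from 0) for the 7 groups on the horizontal axis, alveolar macrophages in blue and bone marrow-derived macrophages in orange. Points are libraries, lines are group means and bars are SDs. Fcgrt is highest at AM day 7 and AM day 0, Fcgr2b at BM days 3 and 7, Fcer1g at AM day 1, and Fcgr1 and Fcgr4 at BM day 3.

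Fcgr1, the high-affinity receptor and a widely used macrophage marker, was highest in BM day 3. It measured 271, 295, 368 and 379 CPM there, against 98.7 to 252 CPM in BM day 1 (median 166) and 116, 117 and 117 CPM in BM day 7. In AM it measured 47.9, 67.9 and 70.7 CPM at day 0, 42.5, 47.6, 54.6 and 83.8 at day 1, 85.2, 147 and 251 at day 3 and 82.3, 87.9, 97.7 and 98.5 at day 7. The BM day 3 libraries all lay above every other library of the study, and the 3 BM day 7 libraries were nearly equal (SD 0.571 CPM). In order of group means, neighbours whose libraries did not overlap were BM day 3 from BM day 1, BM day 7 from AM day 7, and AM day 7 from AM day 0. The libraries of BM day 1, AM day 3 and BM day 7 overlapped, as did those of AM day 0 and AM day 1. Within BM, Fcgr1 rose from day 1 to day 3 (log2 fold change 0.92 ± 0.26 SE, adjusted p = 0.013) and fell by 1.49 ± 0.31 on the log2 scale from day 3 to day 7 (adjusted p = 0.0049). The rise was not called when only the 2 groups were fitted (adjusted p = 0.067) or with the replicate number of the titles as a block (0.062). Within AM it did not differ detectably between days 0 and 1 (−0.12, 95% interval −0.73 to 0.48) and was higher at day 3 than at day 0 (1.37 ± 0.32, adjusted p = 0.013) and at day 1 (1.50 ± 0.29, adjusted p = 0.0086). Those calls rest on AM_day3.2, the library with 251 CPM: without it the differences were 0.90 (adjusted p = 0.27) and 1.03 (adjusted p = 0.23), and without AM_day0.2 the first was 1.21 (adjusted p = 0.13). AM_day3.2 was also the AM library with the highest summed monocyte markers (2394 CPM, against 887 and 1010 CPM in the other AM day 3 libraries), and the part of these in its Fcgr1 was not tested.

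Fcgr4, an activating receptor also carried by monocytes and neutrophils, was by group mean likewise highest in BM day 3 and lowest in BM day 7. That low mean rests on BM_day7.3. By median BM day 7 (91.8 CPM) lay above AM day 0 (84.5 CPM) and AM day 1 (70.2 CPM). Fcgr4 measured 189, 209, 350 and 403 CPM in BM day 3, 147 to 217 CPM in BM day 1 (median 164), and 30.5, 91.8 and 93.1 CPM in BM day 7. AM libraries held 60.5, 84.5 and 99.8 CPM at day 0, 54.0, 57.6, 82.7 and 114 at day 1, 114, 135 and 182 at day 3, and 125, 126, 132 and 134 CPM at day 7. All BM day 7 libraries lay below all BM day 1 and BM day 3 libraries, and the lowest, BM_day7.3, held less than any other library of the study. Its difference between BM days 3 and 1 was 0.72 ± 0.28 (adjusted p = 0.054), and without BM_day3.2 or BM_day3.3 it was called (0.045 and 0.036). From day 3 to day 7 in BM, Fcgr4 fell by 2.00 ± 0.34 on the log2 scale (adjusted p = 0.00073), a call that was lost when only those groups were fitted (adjusted p = 0.10). From day 1 to day 7 it fell by 1.28 ± 0.32 (adjusted p = 0.0064), and without BM_day7.3 by 0.88 (adjusted p = 0.072). BM_day7.3 had the lowest summed alveolar macrophage markers of the 3 BM day 7 libraries, as given above. From BM_day3.1 to BM_day3.4, in order, the summed neutrophil markers were 3207, 575, 474 and 438 CPM. The summed monocyte markers were 2848, 2652, 2808 and 4196 CPM, and Fcgr4 was 350, 209, 189 and 403 CPM. Of the 12 neutrophil markers, BM_day3.1 held 8, among them S100a9 (1251 CPM), S100a8 (959 CPM), Retnlg (208 CPM), Ngp (154 CPM) and Cxcr2 (118 CPM), and Ly6g, Ltf, Mpo and Elane were at 0 there. Among the BM groups the median sums of both lists and the median of Fcgr4 were lowest at day 7. Over BM days 1, 3 and 7 the median sum was 1073, 525 and 170 CPM for neutrophil markers and 2939, 2828 and 1198 CPM for monocyte markers. The median of Fcgr4 was 164, 279 and 91.8 CPM there. Over AM days 0, 1, 3 and 7 the neutrophil median was 87.7, 336, 205 and 89.6 CPM. The monocyte median was 212, 547, 1010 and 197 CPM there, and that of Fcgr4 84.5, 70.2, 135 and 129 CPM. The part of neutrophils and monocytes in the fall of Fcgr4 was not tested. No change of Fcgr4 between AM groups was called, and only the step from AM day 7 to AM day 0 separated neighbours in the order of its group means.

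Fcgr3, by group mean the most abundant activating receptor per kb in every group, stood apart in BM day 1, where it was lowest. There it measured 179, 243, 268, 308 and 333 CPM, against 670, 677, 721 and 813 CPM in BM day 3 and 676, 691 and 789 CPM in BM day 7. AM libraries held 337, 420 and 487 CPM at day 0, 385, 499, 535 and 615 at day 1, 567, 687 and 695 at day 3, and 519, 525, 528 and 548 at day 7. Every BM day 1 library lay below every library of the other groups. Per kb, Fcgr3 and Fcgr4 were close in BM day 1 (group means 153 and 139 CPM per kb). In BM_day1.4 Fcgr4 was the higher of the pair (130.5 against 103.2 CPM per kb). Fcgr3 rose in BM from day 1 to day 3 (1.44 ± 0.16, adjusted p = 3e-07) and did not differ detectably between days 3 and 7 (−0.00, 95% interval −0.37 to 0.37). In AM no change of Fcgr3 was called, the largest being 0.65 ± 0.19 from day 0 to day 3 (adjusted p = 0.082; 0.033 with DESeq2 and 0.036 with those groups fitted alone). BM day 3, BM day 7 and AM day 3 overlapped at the top of the order.

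The make-up of the activating receptors varied between groups. Of the summed CPM per kb of Fcgr1, Fcgr3 and Fcgr4, Fcgr3 made up 72.9%, 77.3%, 68.3% and 68.8% in AM at days 0, 1, 3 and 7 (group means, SD 0.833 to 8.32 percentage points), and Fcgr4 16.8% to 23.2%. In BM the share of Fcgr3 was 42.5% ± 4.23 (SD, n = 5) at day 1, 54.5% ± 8.53 (n = 4) at day 3 and 80.2% ± 5.74 (n = 3) at day 7. Fcgr4 made up 39.1% ± 4.37 at BM day 1 and 11.1% ± 5.62 at BM day 7, and Fcgr1 18.4% ± 3.45, 16.4% ± 0.821 and 8.73% ± 0.116 at BM days 1, 3 and 7. The shares are descriptions of each library and were not tested.

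**Figure D2:**
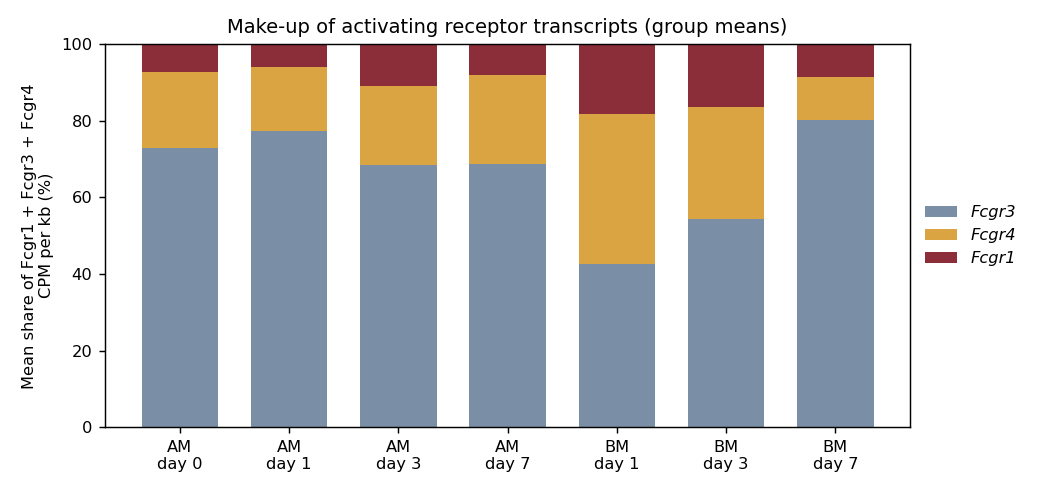
Mean share of Fcgr3, Fcgr4 and Fcgr1 in their summed CPM per kb (vertical axis, percent) in each of the 7 groups. Fcgr3 takes the smallest share in BM day 1 (42.5%) and the largest in BM day 7 (80.2%).

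Fcer1g, whose product the activating receptors need at the surface, rose in AM after LPS and was lowest in BM day 1. It measured 274, 321 and 398 CPM at AM day 0, 667, 808, 872 and 1014 at AM day 1, 591, 659 and 826 at AM day 3, and 475, 502, 514 and 515 at AM day 7. BM libraries held 177, 264, 290, 294 and 315 CPM at day 1, 472, 579, 610 and 625 at day 3, and 388, 503 and 507 at day 7. All LPS-exposed AM libraries lay above all AM day 0 libraries, and the AM day 1 libraries overlapped only with AM day 3. Fcer1g was higher than at day 0 in AM day 1 (1.34 ± 0.19, adjusted p = 2.8e-05) and AM day 3 (1.06 ± 0.20, adjusted p = 0.0014), and not called at AM day 7 (0.60 ± 0.19, adjusted p = 0.25). In BM it rose from day 1 to day 3 (1.09 ± 0.16, adjusted p = 2.2e-05). Every neighbouring pair of groups overlapped in the order of its levels. Tyrobp, the other ITAM adaptor of macrophages, went the other way in AM at day 1: it fell from 640.3 ± 142 CPM (SD, n = 3) at day 0 to 385 ± 75.4 CPM (n = 4), by 0.73 ± 0.20 on the log2 scale (adjusted p = 0.021).

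Set against the summed activating receptors per kb, Fcer1g was highest at AM day 1. The log2 ratio was 0.21 ± 0.12 (SD, n = 3) at AM day 0, 1.34 ± 0.27 (n = 4) at AM day 1, 0.52 ± 0.31 at AM day 3 and 0.37 ± 0.06 at AM day 7. In BM it was −0.24 ± 0.43 (n = 5) at day 1, −0.24 ± 0.24 (n = 4) at day 3 and 0.04 ± 0.24 (n = 3) at day 7. The AM day 1 libraries (0.99 to 1.59) overlapped with no other group.

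Fcgr2b, the inhibitory receptor, rose in AM early after LPS and was highest in BM at days 3 and 7. Without LPS the AM libraries held 153, 189 and 216 CPM, followed by 438, 575, 658 and 702 CPM a day after LPS, 551, 572 and 734 CPM at day 3, and 224, 261, 269 and 320.1 CPM at day 7. In BM it measured 308, 342, 487, 519.7 and 673 CPM at day 1, 928, 989.9, 1012 and 1039 at day 3, and 828, 859 and 1032 at day 7. The BM day 3 and day 7 libraries lay above every other library, and the AM day 7 libraries lay just above those of AM day 0. Against AM day 0, Fcgr2b rose 3.19-fold at AM day 1 (1.67 ± 0.22, adjusted p = 9.9e-06) and 3.32-fold at AM day 3 (1.73 ± 0.23, adjusted p = 1.5e-05). From AM day 3 to AM day 7 it fell by 1.20 ± 0.21 on the log2 scale (adjusted p = 0.00088). In BM it rose from day 1 to day 3 (1.09 ± 0.18, adjusted p = 0.00012) and did not differ detectably between days 3 and 7 (−0.13, 95% interval −0.57 to 0.30). These 4 calls held under every alternative run. Fcgr2b is also carried by B cells, whose 9 markers had a sum of 210 to 277 CPM at AM day 0 and of 4.39 to 163 CPM at AM days 1 and 3, lower where Fcgr2b was higher. In BM the median sum of these markers was 42.7, 121 and 207 CPM at days 1, 3 and 7. The median of Fcgr2b was 487, 1001 and 859 CPM there, so both were higher at day 3 than at day 1. From day 3 to day 7 the marker sum was higher again and Fcgr2b was not. The part of B cells in the levels of Fcgr2b was not tested.

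The balance of activating over inhibitory transcripts moved in both cell types. As log2 of Fcgr1 plus Fcgr3 plus Fcgr4 over Fcgr2b, per kb, it was 3.22, 3.30 and 3.52 at AM day 0, 1.72, 1.74, 1.77 and 2.35 at AM day 1, 2.31, 2.33 and 2.46 at AM day 3 and 3.00, 3.26, 3.29 and 3.53 at AM day 7. BM gave 1.99, 2.00, 2.17, 2.39 and 2.44 at day 1, 1.88, 2.19, 2.29 and 2.29 at day 3, and 1.56, 1.80 and 1.83 at day 7. The AM ratio was thus lower at days 1 and 3 than at day 0 in every library and overlapped with day 0 again at day 7, whereas the BM day 7 libraries lay below all AM libraries of days 0, 3 and 7. Between group means the difference of BM from AM was 0.30 at day 1, −0.21 at day 3 and −1.54 at day 7. Without AM_day1.4 the day 1 value was 0.45, and without BM_day3.2 the day 3 value was −0.11. Without Fcgr3, whose reads can match Fcgr2b, these differences were 1.71, 0.33 and −2.24, so the direction at day 3 turned and the size at day 1 depended on that gene. With the length of the transcript with the longest coding sequence, chosen after seeing the data, they kept their sign, and CPM not divided by length did likewise.

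**Figure D3:**
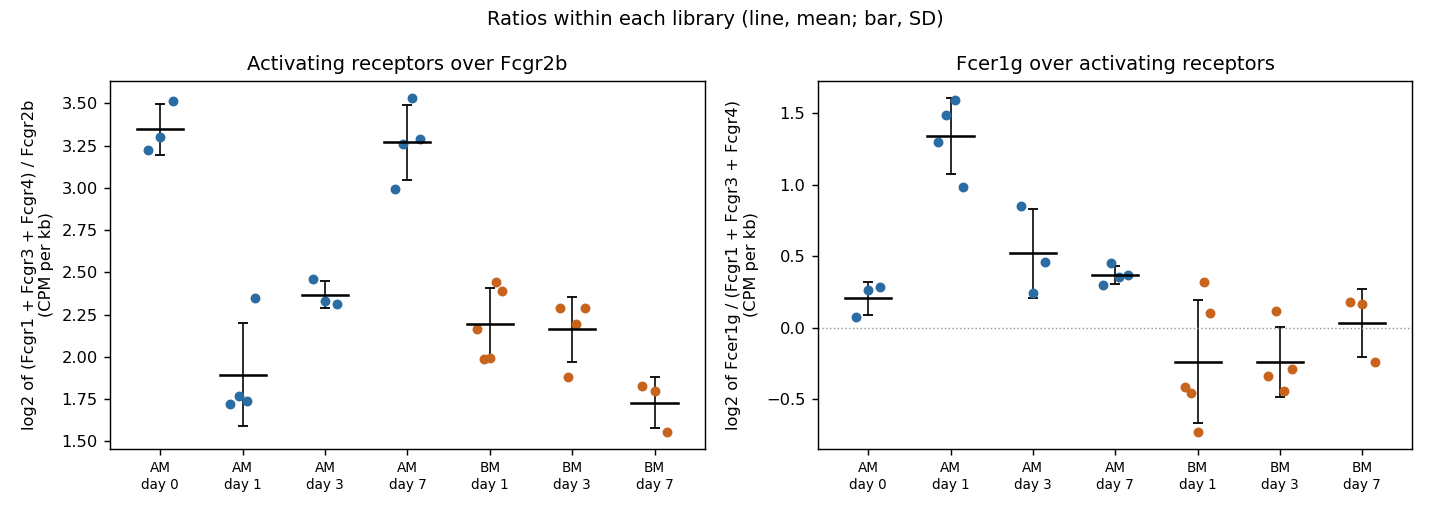
Left, log2 ratio of summed activating receptors to Fcgr2b, and right, log2 ratio of Fcer1g to the summed activating receptors, both from CPM per kb (vertical axes) in each library of the 7 groups, with mean lines and SD bars. The activating ratio is near 3.3 in AM days 0 and 7 and lowest in BM day 7, and the Fcer1g ratio is highest in AM day 1.

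Fcgrt, the heavy chain of FcRn, had the widest range of the 6 genes. AM libraries held 368, 483 and 498 CPM at day 0, 38.8, 57.1, 138 and 159.5 at day 1, 130.4, 168 and 188 at day 3, and 765, 809.9, 846 and 936 at day 7. BM libraries held 10.6, 30.1, 55.7, 56.8 and 122 CPM at day 1, 51.2, 80.3, 103 and 136 at day 3, and 137, 229 and 235 at day 7. AM day 7 lay above AM day 0 and both above every other library, with AM days 1 and 3 overlapping the BM groups. Fcgrt fell in AM from day 0 to day 1 by 2.20 ± 0.53 on the log2 scale (adjusted p = 0.012), and was higher at AM day 7 than at AM day 3 (2.37 ± 0.57, adjusted p = 0.031). The fall was not called without AM_day0.1 (adjusted p = 0.056) or AM_day1.2 (0.052). The later difference kept its direction under all 19 alternatives but was called under 9, and leaving out any 1 of the AM day 3 or AM day 7 libraries ended the call (adjusted p 0.053 to 0.21). With a covariate for Y-linked RNA, which separates these groups, it was 2.55 (adjusted p = 0.24). In BM Fcgrt rose from day 1 to day 7 (1.86 ± 0.49, adjusted p = 0.013), a call lost without BM_day7.1 (0.055) or BM_day7.2 (0.061), the libraries with the high alveolar macrophage marker sums, whose part was not tested. It was also lost with no filter on low counts (0.060) and with those groups fitted alone (0.066). Between BM days 1 and 3 Fcgrt was not called (0.75 ± 0.46, adjusted p = 0.25; 0.043 without BM_day1.5, the highest library of its group).

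B2m, the light chain that FcRn shares with MHC class I, moved differently from its partner. It measured 1228 ± 263 CPM (SD, n = 3) at AM day 0, 3334 ± 940 (n = 4; SD 939.9) at AM day 1, 4257 ± 80.5 (n = 3) at AM day 3 and 2577 ± 243 (n = 4) at AM day 7. Against day 0 it rose by 1.44 ± 0.19, 1.79 ± 0.20 and 1.07 ± 0.19 on the log2 scale (adjusted p = 1e-05, 1.2e-06 and 0.0026). The log2 ratio of Fcgrt to B2m CPM, not corrected for length, went from −1.44 ± 0.26 at AM day 0 to −5.28 ± 1.32 at AM day 1 and −4.73 ± 0.29 at AM day 3, and was −1.62 ± 0.15 at AM day 7. BM groups had −5.30, −5.48 and −3.87 at days 1, 3 and 7. Among 11 tested genes of FcRn partners and endosomal trafficking, B2m was the 1 gene called in each AM comparison with day 0. Of all genes, 6.28%, 2.51% and 0.677% were called there at days 1, 3 and 7. Of these 11 genes, 1 was higher in BM than in AM at day 1, Myo5b, named after its values were seen (mean 1.76 CPM in BM and 0 in AM), against 15.2% of all genes, and 3 were lower, against 13.8%: B2m (−1.01 ± 0.16, adjusted p = 2.7e-05), the late endosome GTPase Rab7 (−1.01 ± 0.19, adjusted p = 0.00018) and the recycling endosome GTPase Rab11a (−1.48 ± 0.28, adjusted p = 0.00024).

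By the number of members called, bone marrow-derived and alveolar macrophages of the same day differed most at day 1. There 2 members were higher in BM, Fcgr1 (1.60 ± 0.27, adjusted p = 5.4e-05) and Fcgr4 (1.18 ± 0.29, adjusted p = 0.0029), and 2 were lower, Fcgr3 (−0.93 ± 0.16, adjusted p = 5.4e-05) and Fcer1g (−1.65 ± 0.16, adjusted p = 2e-08). In that comparison 29% of all tested genes were called (15.2% higher and 13.8% lower), so 4 of 6 members is to be read beside a broad difference. The same 4 members had groups that did not overlap, against 23.3% of all genes, and the 4 calls held under all 19 alternatives. Fcgr2b (−0.35 ± 0.18, adjusted p = 0.16) and Fcgrt (−0.84 ± 0.46, adjusted p = 0.18) were not called at day 1. Without BM_day1.2 the p of Fcgr2b was 0.044, and without BM_day1.5 that of Fcgrt was 0.030. At day 3 no member was called, where 3.98% of genes were. Fcgr1 (1.02 ± 0.30), Fcgr4 (1.00 ± 0.32) and Fcgr2b (0.68 ± 0.21) were each higher in every BM library than in any AM library and had adjusted p of 0.053, 0.078 and 0.070, while 15% of all genes had groups without overlap. Without AM_day3.2 Fcgr1 was called (adjusted p = 0.011). These 3 members had an unadjusted p under 0.05, and DESeq2 called the 3 (adjusted p = 0.0054, 0.020 and 0.015). At day 7 Fcgr2b was called, 3.37-fold higher in BM (1.75 ± 0.21, adjusted p = 5.1e-06, under all alternatives run), where 1.77% of genes were called (1.48% higher). There 5 members had groups without overlap, against 29.7% of genes. Fcgrt had a larger difference, with a log2 fold change of −2.07 ± 0.56, and an adjusted p of 0.068 (0.0024 with DESeq2, 0.00012 with those groups fitted alone).

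In AM alone, with the same day 0 libraries behind each comparison, 3 members were called at day 1 (2 higher, 1 lower, against 6.28% of genes, 3.22% higher and 3.06% lower), 3 at day 3 (all higher, against 2.51%, of which 1.78% higher) and 0 at day 7 (against 0.677%). At day 7 every member's AM libraries lay above those of day 0, with log2 fold changes from 0.35 to 0.90, while 26.8% of all genes had groups without overlap. There 3 members had an unadjusted p under 0.05, DESeq2 called 0, and a fit to those groups alone called 5 of 6, where it called 2578 of 15267 genes. From AM day 1 to day 3, Fcgr1 was called, higher (0.834% of genes, 0.624% higher). From day 3 to day 7 Fcgrt was called higher and Fcgr2b lower (1.59% of genes, 0.233% higher and 1.35% lower). In BM 4 members rose from day 1 to day 3, where 25.9% of genes were called (10.6% higher), and 2 fell from day 3 to day 7 (3.98% of genes, 0.898% lower). Between BM days 1 and 7, 4 were higher and 1 lower at day 7 (13.3% of genes, 8.88% higher and 4.4% lower).

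**Figure D4:**
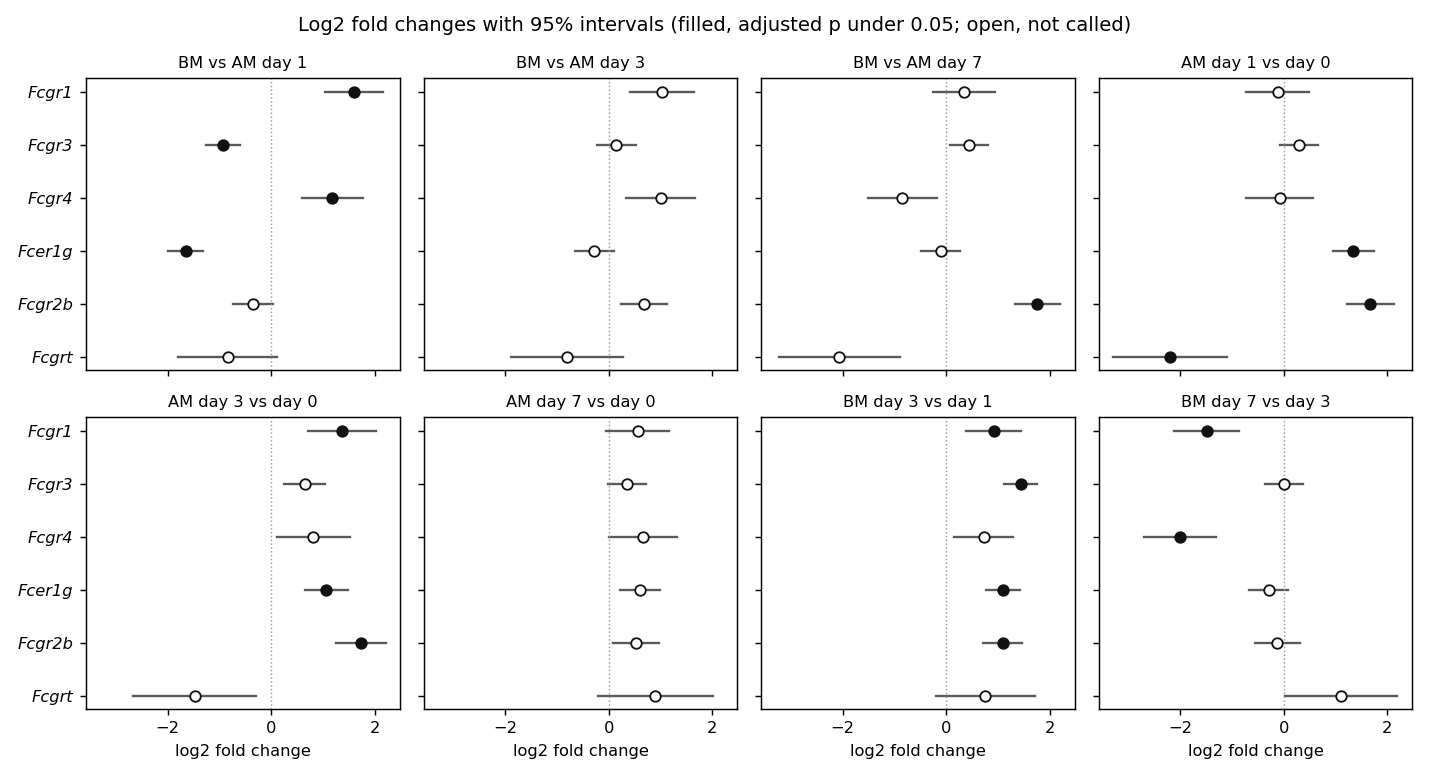
Log2 fold change of each member (horizontal axis, first-named group over second) with its 95% interval in 8 comparisons. Filled points have an adjusted p under 0.05 in edgeR. At day 1 Fcgr1 and Fcgr4 lie to the right and Fcgr3 and Fcer1g to the left of 0, and at day 7 Fcgr2b alone is filled.

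Whether AM and BM changed differently over time was tested as an interaction. From day 1 to day 7, 4 members differed in their change between BM and AM, where 7.54% of genes did (4.61% more positive in BM and 2.93% more negative). The change was more positive in BM for Fcgr2b (2.10 ± 0.28, adjusted p = 1.4e-05), Fcer1g (1.54 ± 0.25, adjusted p = 0.00013) and Fcgr3 (1.37 ± 0.24, adjusted p = 0.00035), and more negative for Fcgr4 (−2.03 ± 0.43, adjusted p = 0.0029). These held under all 26 alternatives. Fcgr1 was not called (−1.26 ± 0.40, adjusted p = 0.052) but was under 12 of the 26, among them DESeq2 (0.0084) and the fits without AM_day1.4 (0.019), BM_day1.3 (0.042), BM_day1.4 (0.040) or BM_day1.5 (0.018). From day 3 to day 7 none was called in edgeR (0.362% of genes were), with 2 at an unadjusted p under 0.05, Fcgr4 (−1.85 ± 0.46, adjusted p = 0.078) and Fcgr2b (1.07 ± 0.30, adjusted p = 0.13), and DESeq2 called Fcgr4 (adjusted p = 0.0025). Without BM_day3.2 edgeR called it as well (0.049).

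Downstream of the receptors, ITAM signals run through Src-family kinases and Syk to phospholipase C, PI3 kinase and Vav. Of 29 such genes, 10 were higher and 3 lower in BM than in AM at day 1, with a median log2 fold change of 0.35 against 0.06 over all genes tested, of which 15.2% were higher and 13.8% lower. The called genes that differed most were the adaptor Lat2 (2.71 ± 0.49, adjusted p = 0.00013), the Rac exchange factor Vav3 (2.51 ± 0.41, adjusted p = 3.2e-05), the kinase Fyn (2.50 ± 0.31, adjusted p = 5.8e-07) and the PI3 kinase subunit Pik3cd (1.95 ± 0.28, adjusted p = 5.7e-06). Syk itself had 1018 ± 82.5 CPM (SD, n = 5) in BM day 1 and 897 ± 112 CPM (n = 4) in AM day 1 and was not called (0.18 ± 0.13, adjusted p = 0.29). At days 3 and 7, 2 of 29 were higher and 0 lower in BM (3.98% and 1.77% of all genes were called), with Fyn and Plcg2 at day 3 and Lat2 (3.27 ± 0.53, adjusted p = 0.0003) and Src (2.28 ± 0.57, adjusted p = 0.03) at day 7. In AM at day 1 against day 0 (3.22% of all genes higher and 3.06% lower), 3 rose, with Src the largest (2.71 ± 0.62, adjusted p = 0.006), and 4 fell, among them Fyn (−1.31 ± 0.32, adjusted p = 0.011), Gab2 (−1.23 ± 0.33, adjusted p = 0.023) and Plcg2 (−0.89 ± 0.16, adjusted p = 0.0007). In BM 11 of 29 fell and 3 rose from day 1 to day 3, where 25.9% of all genes were called.

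On the inhibitory side, 12 of 17 receptors and effectors were higher and 1 lower in BM than in AM at day 1, with a median of 0.88 against 0.06 over all genes (15.2% higher and 13.8% lower). Besides the ITIM receptor Cd300a (2.83 ± 0.30, adjusted p = 5.1e-08), these were led by the ubiquitin ligases Cbl (1.77 ± 0.22, adjusted p = 6.3e-07) and Cblb (1.58 ± 0.31, adjusted p = 0.00031) and by Pecam1, which is also an endothelial marker. The 5 endothelial markers, Pecam1 among them, had a sum of 141 to 408 CPM in BM day 1 and of at most 18.3 CPM in AM day 1, and their part in the Pecam1 difference was not tested. The phosphatase SHIP-1, encoded by Inpp5d and recruited by Fcgr2b, was 475 ± 35.7 CPM in BM day 1 against 171 ± 43.1 CPM in AM day 1 (1.48 ± 0.27, adjusted p = 0.00017). At that day Fcgr2b itself did not differ detectably (−0.35 ± 0.18, adjusted p = 0.16). At day 7, where Fcgr2b was higher in BM, 2 of the 17 were called (1.77% of all genes), Cd300a (1.36 ± 0.31, adjusted p = 0.012) and Lilrb4a (1.00 ± 0.24, adjusted p = 0.024), and Inpp5d was not (0.52 ± 0.30, adjusted p = 0.80). In AM at day 1 against day 0, where 6.28% of all genes were called, 0 of the 17 rose and 3 fell: Pag1 (−1.37 ± 0.24, adjusted p = 0.00029), Dok3 (−0.71 ± 0.20, adjusted p = 0.032) and Csk, which fell by 1.00 ± 0.24 (adjusted p = 0.0094).

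**Figure D5:**
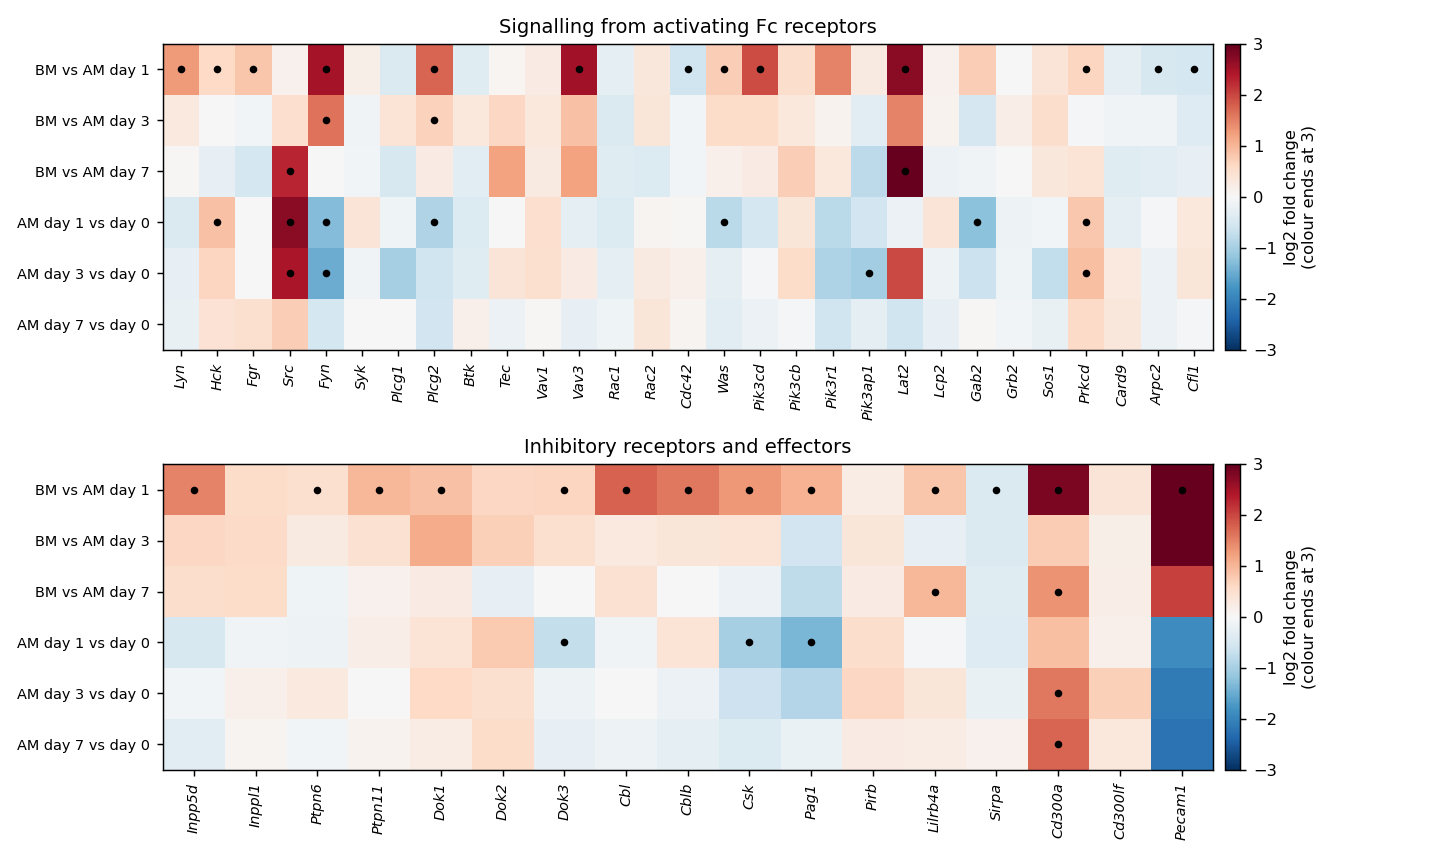
Log2 fold changes (colour, ending at 3 in either direction) of 29 signalling genes of activating Fc receptors, above, and of 17 inhibitory receptors and effectors, below, in 6 comparisons (rows). Dots mark an adjusted p under 0.05 in edgeR. The row of BM against AM at day 1 holds the most dots in both panels (13 and 13).

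Other receptors that signal through Fcer1g or Tyrobp did not move as a block. Of 13 tested, 5 were higher and 3 lower in BM than in AM at day 1, against 29% of all genes called in either direction, and Cd300ld (3.60 ± 0.99, adjusted p = 0.0098), Cd300lb (2.40 ± 0.68, adjusted p = 0.01) and Sirpb1a (2.34 ± 0.37, adjusted p = 2.5e-05) were higher. From AM day 0 to day 1, 3 rose and 3 fell (6.28% of all genes were called): the C-type lectins Clec4d (2.85 ± 0.42, adjusted p = 4.9e-05) and Clec4e (2.07 ± 0.30, adjusted p = 3.6e-05) were higher, while Sirpb1a (−2.28 ± 0.40, adjusted p = 0.00033) and Trem1 (−1.83 ± 0.26, adjusted p = 2.4e-05) were lower. Among 10 tested receptors for other antibody classes and Fc-like genes, 2 were higher and 2 lower in BM at day 1 (29% of all genes). Fcrls was higher in BM at days 1 and 3 (11.8 against 0.366 CPM, and 78.5 against 1.31 CPM), and Fcrlb, an intracellular Fc receptor relative, rose in AM at day 1 from 4.50 to 50.1 CPM (3.47 ± 1.00, adjusted p = 0.034).

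Interferon gamma is the classical inducer of Fcgr1. In BM, from day 3 to day 7, the interferon-induced transcription factor Irf1 fell (−1.89 ± 0.48, adjusted p = 0.025), as did Fcgr1 and Fcgr4. In some other steps they moved apart. Over AM days 0, 1, 3 and 7 mean Irf1 was 137, 562, 219 and 112 CPM. Mean Fcgr1 was 62.2, 57.1, 161 and 91.6 CPM there, and mean Fcgr4 81.6, 77.1, 144 and 129 CPM. Over BM days 1, 3 and 7 mean Irf1 was 512, 351 and 94.5 CPM. There mean Fcgr1 was 174, 328 and 117 CPM and mean Fcgr4 175, 288 and 71.8 CPM. Any part of interferon in these levels was not tested. Of 17 inducers and transcription factors of Fc receptor genes, 8 were higher and 2 lower in BM than in AM at day 1 (15.2% and 13.8% of all genes), among them the receptors Csf3r (2.28 ± 0.32, adjusted p = 4.4e-06), which is also a neutrophil marker, Il10ra (1.81 ± 0.21, adjusted p = 2.1e-07) and Ifngr1 (1.71 ± 0.22, adjusted p = 1.1e-06). The transcription factor Tfec was lower there (−2.79 ± 0.60, adjusted p = 0.0012). The complement receptor C5ar1, whose ligand raises the activating over the inhibitory receptors in other settings, fell in AM from day 0 to day 1 (−1.91 ± 0.26, adjusted p = 1.6e-05).

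Across the 26 libraries, which share 7 groups and therefore are not independent, the pair of members most alike on log2(CPM + 1) was Fcgr1 and Fcgr4 (Pearson r = 0.78), followed by Fcgr3 and Fcer1g (r = 0.65), and the most opposed was Fcgr2b and Fcgrt (r = −0.56). Among 9551 genes compared, those nearest to Fcgr1 were Lair1 (r = 0.92), Sh3kbp1 (r = 0.91) and Gatm (r = 0.90). The nearest to Fcgr4 were Fermt3 (r = 0.82), Cyp4f18 (r = 0.78) and Fcgr1, and those to Fcgr3 were Npc2, Tpt1 and Nsa2 (r = 0.93, 0.92 and 0.92). Acp5 (r = 0.94), Rpl4 (r = 0.91) and Rps23 (r = 0.91) lay nearest to Fcer1g, Il10rb (r = 0.93), Itgam (r = 0.90) and Slc25a37 (r = 0.90) to Fcgr2b, and Fam53b (r = 0.93), Laptm5 (r = 0.93) and Hpcal1 (r = 0.90) to Fcgrt. These values are descriptions and were not tested.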

How the data were processed

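RNA of 26 libraries in 7 groups was measured. The authors deposited raw read counts per Ensembl gene, and per the submitters' processing notes the tools were featureCounts 2.0.0, HISAT2 2.1.0, FastQC 0.11.9 and Trimmomatic 0.39 with the build GRCm38, with settings and annotation release not given in the sources used here. Of 55487 identifiers, 55227 were given symbols through GENCODE M21 and 260 had none. Genes were kept by filterByExpr (minimum count 10), scaled by TMM and tested with edgeR 4.0.16 (R 4.3.3) in a robust quasi-likelihood fit over all libraries, with Benjamini-Hochberg adjustment over 17143 genes in each of 13 comparisons. Intervals are 95%. CPM per kb divides by the length of the union of exons. The fit was first tested on simulated data.

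Alternatives were DESeq2 1.42.0, other scalings and filters, replicate blocks, a Y-linked covariate and leaving libraries out. The members, gene lists and marker lists were chosen with earlier results of these data known. From each list the text names up to 4 called genes with the largest change, at least 5 CPM and no overlap between groups, and the most abundant gene. Syk, Tyrobp and Inpp5d were named outside that rule, after their values were seen. For likeness, 3 genes per member were named. The values of 1 listed gene are not reported here. No library pair was alike enough to be a duplicate. Library depth, 9176202 to 80816742 counts, left at least 149 counts for each member in each library.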

Additional observations from a re-analysis of the deposited data

Results flagged for a closer look

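The log2 ratio of activating receptors to Fcgr2b in AM_day1.4 was 2.35, apart from the other AM day 1 libraries at 1.72 to 1.77. This was the 1 library that stood apart by a gap test for small groups among 28 such tests, of which chance gives about 1 in 20. The test was not run in AM day 0, AM day 3 and BM day 7, the groups with the fewest libraries.

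The change from day 1 to day 7 differed between BM and AM in 4 members by edgeR's interaction test. The difference, BM minus AM on the log2 scale, was 2.10 for Fcgr2b, 1.54 for Fcer1g, 1.37 for Fcgr3 and −2.03 for Fcgr4 (adjusted p = 1.4e-05, 0.00013, 0.00035 and 0.0029).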

How the results depend on the processing

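Of 78 results for a member in a comparison, 29 were called, and 21 of these were called under every alternative run (17 to 26 per comparison). No called value changed sign. Of the 49 not called, 26 were never called. The cause of the changes below was not tested.

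The number of members called in BM against AM at day 3 (0) became 2 with DESeq2 size factors, 2 with library size alone, 1 with no filter, 2 without AM day 0 and BM day 1, 3 with DESeq2, and 0 to 1 with 1 library left out. At day 7 (1) it became 2 with a stricter filter, 4 with only those groups fitted, 2 without AM day 0 and BM day 1, 2 without BM_day1.3 and BM_day3.1, and 2 with DESeq2. With only those groups fitted it was 6 for AM day 3 against day 0 (3), 5 for AM day 7 against day 0 (0), 0 for AM day 3 against day 1 (1), 4 for AM day 7 against day 3 (2), 1 for BM day 7 against day 3 (2) and 1 for the interaction of days 7 and 3 (0). That interaction gave 1 without AM day 0 and BM day 1, 1 with DESeq2 and 0 to 1 with 1 library left out. The interaction of days 7 and 1 (4) gave 5 under 8 settings other than leaving out 1 library. AM day 3 against day 1 gave 0 to 1 with 1 library left out. AM day 7 against day 3 gave 1 with no filter, 1 with the library number range as a term, 1 with the Y-linked covariate and 1 with any library left out. Over all genes, fitting only the groups compared raised the calls in some comparisons, from 116 to 2578 for AM day 7 against day 0, 430 to 2327 for AM day 3 against day 0, 1077 to 1862 for AM day 1 against day 0, 272 to 2246 for AM day 7 against day 3, 303 to 2948 for BM against AM at day 7 and 62 to 323 for the interaction of days 7 and 3. It lowered them in others, from 683 to 6 for BM against AM at day 3, 683 to 41 for BM day 7 against day 3 and 4432 to 1117 for BM day 3 against day 1. DESeq2 raised them in BM against AM at days 3 (683 to 1834) and 7 (303 to 604), in AM days 1, 3 and 7 against day 0 (1077 to 2051, 430 to 937 and 116 to 341), in AM day 3 against day 1 (143 to 844) and day 7 against day 3 (272 to 639), in BM day 7 against day 3 (683 to 1496) and in the interactions of day 7 with days 3 (62 to 600) and 1 (1292 to 2302).

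Replicate numbers did not pair the samples: deviations of libraries with the same number correlated between −0.113 and 0.0928. With the title number as a block 1 member was called in BM against AM at day 3, with the description number as a block 1 at day 3 and 2 at day 7. Fcgr2b in AM day 3 against day 1 was then −0.00388 with the title block, and Fcgr3 in BM day 7 against day 3 was 0.00946 with the description block.

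Without Fcgr3, the difference of the activating ratio became 1.71, 0.33 and −2.24 for BM minus AM at days 1, 3 and 7, −1.77, −0.77 and 0.13 for AM days 1, 3 and 7 minus day 0, and −2.04 for BM day 7 minus day 1. The AM day 7 difference ranged from −0.17 to 0.0137 with 1 library left out. Values near 0 that turned sign, none of them called, were Fcgr3 in BM day 7 against day 3 (0.00857 without AM day 0 and BM day 1, 0.00331 without BM_day1.3 and BM_day3.1, −0.0687 to 0.0796 with 1 library left out), Fcgr4 in AM day 7 against day 3 (0.0084 with the Y-linked covariate, −0.281 to 0.0632), Fcgr4 in AM day 1 against day 0 (−0.338 to 0.0893), Fcgr2b in AM day 3 against day 1 (−0.0751 to 0.152) and Fcer1g in BM against AM at day 7 (−0.184 to 0.0041).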
